A study of Mus musculus with 8 samples.

Results

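Immediate early genes are the first genes that neurons transcribe after synaptic activity. The 10 members described here, Fos, Fosb, Junb, Egr1, Egr3, Npas4, Nr4a1, Nr4a3, Arc and Homer1, were taken by name, and all 10 were found among the 32285 genes of the deposited count table. They were followed in the 45141 nuclei annotated as neurons, of 61949 nuclei in all. Nuclei were isolated from frozen hemispheres of mice of the strain C57BL6/J at 6 months of age, and neither the cerebellum nor the olfactory bulb was included. WT mice carry neither modification. Cnp-/- mice lack CNP, an enzyme of the myelin sheath made by oligodendrocytes, in the whole body. 5xFAD mice carry human transgenes with mutations of familial Alzheimer's disease, expressed in neurons from the Thy1 promoter, and develop amyloid plaques. Cnp-/- 5xFAD mice combine both. Each of the 4 genotypes had 2 libraries. The study states pooling of animals per replicate for its single-cell work in general, but its account of these hemispheres names none, so whether a library is 1 animal or a pool is not settled, and p-values measure only the spread between libraries. The question asked of the neurons was whether Cnp loss, 5xFAD or both went with other levels of activity-regulated genes.

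Calcium entering through NMDA receptors and voltage-gated channels activates factors that already sit at these genes, such as CREB, SRF and MEF2, so that transcription starts within minutes and needs no new protein. The RNA is short-lived, and its level is therefore commonly used to mark neurons that were active shortly before the tissue was taken. Some members encode transcription factors that switch on later genes, and others act at the synapse.

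The upstream sequences of the 3 AP-1 genes are shown because Fos and Fosb were the pair of members most often detected in the same neurons relative to expectation. They are from RefSeq on GRCm38.p6, run from 250 to 11 bases before the annotated start and are read 5′ to 3′ along the gene. Capitals mark the CRE half-site TGACG, the core that CREB binds, on either strand. Fos is chr12:85473640-85473879 on the plus strand, Fosb chr7:19310056-19310295 on the minus strand and Junb chr8:84978759-84978998 on the minus strand.
Fos: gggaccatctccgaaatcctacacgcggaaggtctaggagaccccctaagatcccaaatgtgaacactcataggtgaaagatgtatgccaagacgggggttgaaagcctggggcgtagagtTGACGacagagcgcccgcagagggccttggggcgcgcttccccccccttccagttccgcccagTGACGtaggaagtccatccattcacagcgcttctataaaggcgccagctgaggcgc
Fosb: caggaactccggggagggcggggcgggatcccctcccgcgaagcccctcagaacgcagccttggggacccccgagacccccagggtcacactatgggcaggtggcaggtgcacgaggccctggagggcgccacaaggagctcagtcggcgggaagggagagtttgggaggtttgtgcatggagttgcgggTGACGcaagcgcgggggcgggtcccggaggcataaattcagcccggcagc
Junb: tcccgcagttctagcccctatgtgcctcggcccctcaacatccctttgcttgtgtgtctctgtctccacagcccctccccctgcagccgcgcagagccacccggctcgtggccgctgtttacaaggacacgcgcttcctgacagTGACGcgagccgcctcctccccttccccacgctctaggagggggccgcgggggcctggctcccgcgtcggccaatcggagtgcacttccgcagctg
The half-site began 129 and 66 bases before the start of Fos, 60 bases before that of Fosb and 106 bases before that of Junb. Promoters of 7 members were matched by symbol (Fos, Fosb, Junb, Npas4, Nr4a1, Nr4a3 and Homer1). Within the 250 bases before the start, 7 of 7 held the half-site, for Homer1 in 1 of 2 promoters, as did 17.8% of all 32851 promoters. The full CRE TGACGTCA, which holds the half-site on both strands, was in 0 of 7 and in 1.55% of all promoters. The AP-1 site TGACTCA, searched on both strands, was in 0 of 7 and 4.46%, and the CArG box that SRF binds in 0 of 7 and 1.47%. Bases further upstream were not searched, and Arc, Egr1 and Egr3 had no matched promoter, so each 0 holds for this window only.

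Libraries held 6801 to 8824 nuclei, of which 4463 to 6838 were neurons with 64172772 to 77113463 UMIs (unique molecular identifiers, each standing for 1 captured transcript) and a median of 6474 to 11309 UMIs per neuron. Of 61494 different cell barcodes, 454 occurred in more than 1 library. In mature oligodendrocytes, Cnp was at 219 to 321 CPM (counts of UMIs per 1000000 UMIs) in the 4 libraries with Cnp and at 23.1 to 32.8 CPM in the 4 labelled Cnp-/- or Cnp-/- 5xFAD. Each of the 8 neuronal markers was detected in the neurons of every library, with a summed level of 4888 to 5826 CPM. Markers of other cells summed in neurons to 165 to 339 CPM for mature oligodendrocytes, 235 to 353 CPM for astrocytes, 68.4 to 79.0 CPM for microglia, 1.47 to 6.64 CPM for endothelial cells and 1.51 to 10.2 CPM for pericytes. Of these markers, Cldn5 was at 0 in 1 library and Ly6c1 in 2. Cnp-/- 5xFAD replicate 2 had the lowest summed heat shock level (31.3 CPM, against 33.1 to 40.8 CPM in the others) and the lowest mitochondrial level (7.34 CPM, against 10.0 to 53.0 CPM). Neurons with at least 2 UMIs of Gad1 and Gad2, which make GABA, and none of the vesicular glutamate transporters Slc17a7 and Slc17a6 made up 8.53% of its neurons and 35.6% of those of WT replicate 1, the highest. These are called the Gad class, and neurons with at least 2 UMIs of Slc17a7 and none of Gad1 and Gad2 the Slc17a7 class, which made up 23.8 to 49.3% of neurons. The WT libraries stood apart by neurons with at least 2 UMIs of Slc17a6 and none of Slc17a7, Gad1 and Gad2 (the Slc17a6 class), with 80 and 197 nuclei (1.31 and 3.55% of neurons) against 4 to 22 (0.0647 to 0.493%) in the 6 mutant libraries. Slc17a6 itself was at 17.2 and 22.5 CPM in neurons of WT and at 4.21 to 7.56 CPM in the mutants, and the pericyte markers summed to 7.98 and 10.2 CPM in WT and 1.51 to 6.83 CPM in the mutants.

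The transcription factor and synaptic genes Fos, Fosb, Junb, Egr1, Npas4 and Arc (6 of 10) were each higher in all 4 libraries of the single mutants than in both WT libraries, as were 6.08% of all genes tested. Without the neurons of the Slc17a6 class, which set WT apart, the same 6 were higher, beside 5.92% of genes. This left in neurons with 1 UMI of Slc17a6 and none of Slc17a7, Gad1 and Gad2 (80 and 137 in WT, 23 to 52 in the mutants), and others in no class. It therefore covers only part of the make-up by which WT differed. The part of the remaining make-up and of the pericyte marker RNA was not tested. Fos, Egr1, Junb and Npas4 (4 of 10) were lower in both double mutant libraries than in all 4 single mutant libraries, as were 11.6% of all genes tested. For Fos, the double mutant values were 3.98 and 0 CPM, and the 0 is described below. None of the 10 members passed the test in neurons for Cnp loss, for 5xFAD or for their interaction (edgeR's quasi-likelihood test with a Benjamini-Hochberg threshold of 0.05), and all 10 passed the filter on low counts. Levels are given in CPM of all neuron UMIs of a library, in the order of replicates 1 and 2. On this scale, fewer active neurons and less RNA per active neuron cannot be told apart.

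Fos, Fosb and Junb encode proteins that pair to form AP-1, a factor at enhancers of activity-dependent genes. Fos (chr12:85473890-85477273 on the plus strand, mm10) was at 2.65 and 1.56 CPM in WT, 4.99 and 6.72 CPM in Cnp-/-, 4.62 and 5.26 CPM in 5xFAD, and 3.98 and 0 CPM in Cnp-/- 5xFAD. The single mutants lay above WT without overlap, and the double mutant held both a value near them and a 0. None of the 6181 neurons of Cnp-/- 5xFAD replicate 2 carried a Fos UMI, a count of 0 that allows at most 0.0485% of neurons with a UMI and at most 0.0402 CPM (limits of 3 counts, for counting error only). In the same library, 15 of 590 astrocytes carried 22 Fos UMIs. Among the 13765 genes with at least 100 UMIs in the neurons of each of the other 7 libraries, Fos was the only one at 0 in this library. The authors had removed ambient RNA computationally, and the part of that step in this 0 was not tested. Without this library, the other double mutant library lay above WT and below the 4 libraries of the single mutants, in level and in thinned share. The log2 fold change of Fos was 0.14 ± 0.930 (SE) for Cnp loss and -0.16 ± 0.930 for 5xFAD with the library, and 0.63 ± 0.234 and 0.34 ± 0.235 without it, each an average over mice with and without the other modification, with edgeR adjusted p-values of 0.848 or higher.

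Fosb (chr7:19302696-19310051 on the minus strand) was at 1.17 and 0.468 CPM in WT, 1.95 and 1.95 CPM in Cnp-/-, 1.88 and 2.92 CPM in 5xFAD, and 2.45 and 0.939 CPM in Cnp-/- 5xFAD. WT replicate 2 was lowest, with 33 UMIs, and the double mutant overlapped with each other genotype. Junb (chr8:84974484-84978718 on the minus strand) was at 11.0 and 14.2 CPM in WT, 24.9 and 27.5 CPM in Cnp-/-, 23.1 and 27.4 CPM in 5xFAD, and 16.9 and 16.4 CPM in Cnp-/- 5xFAD. The replicates of each genotype lay close together, the single mutants overlapped with each other, and the double mutant lay between WT and the single mutants without overlap.

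Egr1 and Egr3 encode zinc finger factors, of which Egr1 is a classical target of the MAP kinase pathway. Egr1 (chr18:34859823-34864984 on the plus strand) was at 2.65 and 1.64 CPM in WT, 10.1 and 8.23 CPM in Cnp-/-, 14.6 and 9.72 CPM in 5xFAD, and 6.41 and 4.59 CPM in Cnp-/- 5xFAD. All mutant libraries were above both WT libraries, and both double mutant libraries were below the 4 libraries of the single mutants. Egr3 (chr14:70077203-70082614 on the plus strand) was at 10.4 and 7.31 CPM in WT, 9.91 and 7.14 CPM in Cnp-/-, 6.93 and 8.13 CPM in 5xFAD, and 11.9 and 4.01 CPM in Cnp-/- 5xFAD. All genotypes overlapped, and the double mutant held both the highest and the lowest library.

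Npas4 (chr19:4984355-4990316 on the minus strand), a largely neuron-specific bHLH-PAS factor that adjusts inhibitory synapses after depolarization, was at 8.89 and 6.98 CPM in WT, 16.7 and 20.9 CPM in Cnp-/-, 14.7 and 17.3 CPM in 5xFAD, and 13.8 and 6.83 CPM in Cnp-/- 5xFAD. The single mutants lay above WT and above the double mutant, which overlapped with WT. Nr4a1 and Nr4a3 encode orphan nuclear receptors. Nr4a1 (chr15:101254269-101274795 on the plus strand) was at 54.9 and 47.6 CPM in WT, 56.0 and 56.6 CPM in Cnp-/-, 49.5 and 43.4 CPM in 5xFAD, and 65.4 and 39.6 CPM in Cnp-/- 5xFAD. Nr4a3 (chr4:48045153-48086447 on the plus strand) was at 28.0 and 14.1 CPM in WT, 20.6 and 11.7 CPM in Cnp-/-, 15.3 and 15.0 CPM in 5xFAD, and 28.3 and 4.59 CPM in Cnp-/- 5xFAD. For both receptors, the highest and the lowest library were those of the double mutant, and Cnp-/- lay above WT for Nr4a1 but not for Nr4a3.

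Arc and Homer1 act at the synapse, Arc in the internalization of AMPA receptors and Homer1 as a scaffold that links metabotropic glutamate receptors to calcium stores. Arc (chr15:74669083-74672570 on the minus strand) was at 5.66 and 6.81 CPM in WT, 13.1 and 21.6 CPM in Cnp-/-, 11.4 and 10.3 CPM in 5xFAD, and 11.6 and 2.55 CPM in Cnp-/- 5xFAD. Cnp-/- was highest, while the double mutant held a library just above 5xFAD and the lowest library of all. Homer1 (chr13:93299635-93405129 on the plus strand) was at 294 and 227 CPM in WT, 246 and 224 CPM in Cnp-/-, 197 and 183 CPM in 5xFAD, and 334 and 276 CPM in Cnp-/- 5xFAD. It was lowest in 5xFAD and higher in the double mutant than in both single mutants. Counts per gene do not separate the short activity-induced form Homer1a from the constitutive long forms. Cnp-/- 5xFAD replicate 2 had the lowest level for 6 members (Fos, Arc, Egr3, Npas4, Nr4a1 and Nr4a3), WT replicate 2 for 2 (Fosb and Egr1), and WT replicate 1 (Junb) and 5xFAD replicate 2 (Homer1) for 1 each. The share of all genes that are lowest in each library was not computed, so these counts only describe the members.

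**Figure D1:**
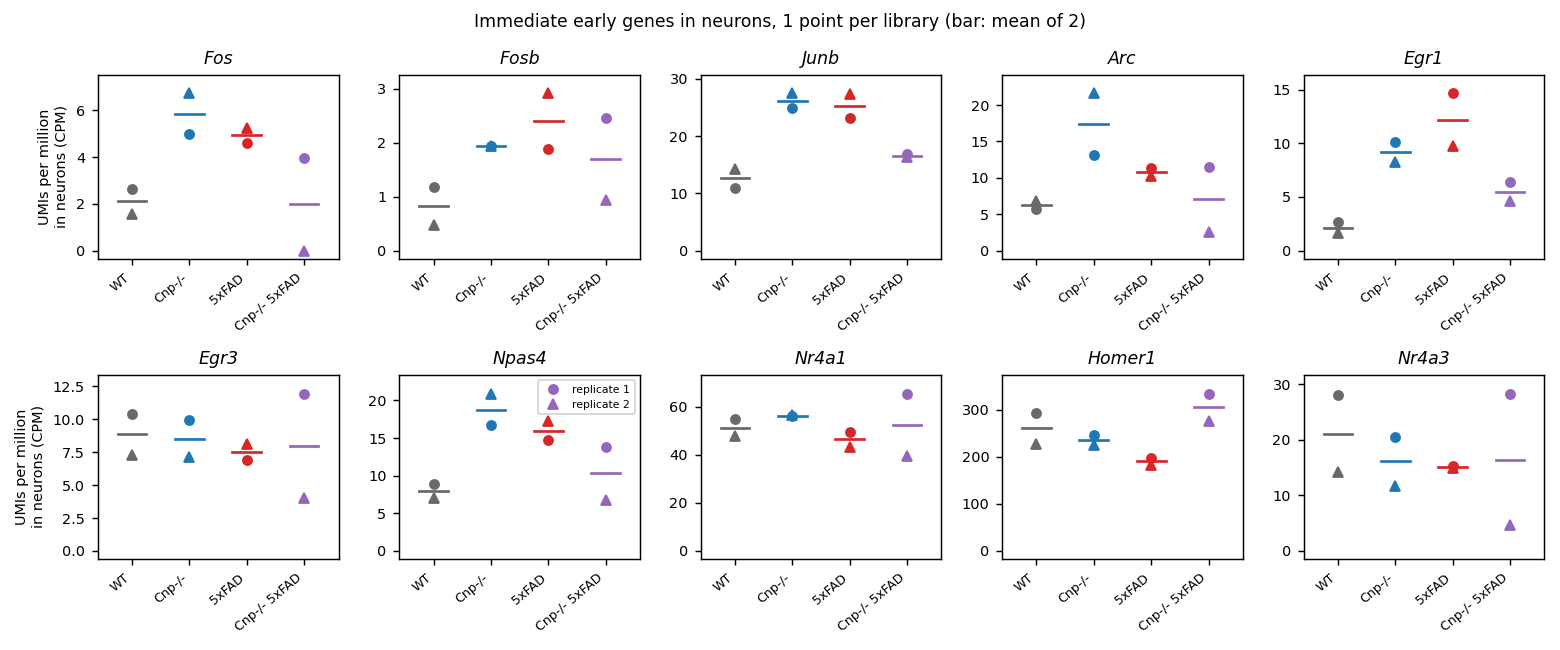
Levels of the 10 genes in neurons, in CPM of all neuron UMIs of a library, by genotype, with 1 point per library and a bar at the mean of 2. Fos, Fosb, Junb, Arc, Egr1 and Npas4 are higher in all single mutant libraries than in both WT libraries, and Fos is at 0 in Cnp-/- 5xFAD replicate 2.

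The effect of Cnp loss, averaged over mice with and without 5xFAD, was tested first. Log2 fold changes of the members ran from -0.08 (Nr4a3) to 0.53 (Egr1), with a median of 0.31 beside 7.87e-05 over all 21584 genes tested. Without Cnp-/- 5xFAD replicate 2, this median was 0.47. Junb had 0.29 ± 0.0953 (SE, adjusted p = 0.528, edgeR), Homer1 0.33 ± 0.109 (adjusted p = 0.536) and Egr1 0.53 ± 0.225 (adjusted p = 0.610). edgeR called 0 of 10 members, beside 0.0185% of all genes, with 3 members and 8.14% of genes at an unadjusted p under 0.05, and 7 and 4.87% without Cnp-/- 5xFAD replicate 2. DESeq2 called 0 of 10, beside 0.82% of genes.

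For 5xFAD, averaged over mice with and without Cnp, log2 fold changes ran from -0.23 (Arc) to 0.90 (Egr1), with a median of -0.06 beside -0.000978 over all genes. Without Cnp-/- 5xFAD replicate 2, the median was 0.18. Egr1 averaged 12.2 ± 3.48 CPM (SD, n = 2) in 5xFAD and 5.50 ± 1.29 CPM in Cnp-/- 5xFAD, and 2.15 ± 0.712 CPM in WT and 9.16 ± 1.33 CPM in Cnp-/-. Its log2 fold change was 0.90 ± 0.226 (SE, adjusted p = 0.280, edgeR). edgeR called 0 of 10 members, beside 0% of genes, with 1 member and 11.8% of genes at an unadjusted p under 0.05, and 2 and 6.51% without Cnp-/- 5xFAD replicate 2. DESeq2 called 1 of 10, Egr1 (adjusted p = 0.0119), beside 2.46% of genes.

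The interaction asks whether Cnp loss goes with another difference in mice with 5xFAD than in mice without. It was negative for 6 members (Fos, Fosb, Junb, Arc, Egr1 and Npas4), with a median over the 10 of -1.68 on the log2 scale beside -0.00675 over all genes. Egr1 had -3.23 ± 0.459 (SE, adjusted p = 0.499, edgeR), Junb -1.64 ± 0.192 (adjusted p = 0.212) and Npas4 -1.86 ± 0.439 (adjusted p = 0.900). Homer1 had the opposite sign, with 0.85 ± 0.218 (adjusted p = 0.900, edgeR). edgeR called 0 of 10 members, beside 0% of genes, with 5 members and 4.94% of genes at an unadjusted p under 0.05, and 6 and 3.11% without Cnp-/- 5xFAD replicate 2. DESeq2 called 3 of 10, beside 0.28% of genes, with adjusted p-values of 1.07e-08 for Junb, 2.34e-08 for Egr1 and 0.0165 for Npas4. The estimates of DESeq2 were -1.63, -3.22 and -1.85, so the sizes were alike and only the call depended on the tool. Without Cnp-/- 5xFAD replicate 2, the edgeR interaction was -1.77 for Fos in place of -2.78, -1.37 for Arc in place of -2.09, -1.43 for Npas4, -3.01 for Egr1 and -1.62 for Junb, with a median over the members of -1.28.

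Single pairs of genotypes were compared after the levels had been seen. They share libraries with each other, so their values are given side by side. Cnp-/- lay above WT without overlap for 7 of 10 members (the 6 named above and Nr4a1), beside 11.9% of all genes tested, and 5xFAD lay above WT for 6 of 10, beside 18.2%. In Cnp-/-, the log2 difference to WT was 2.15 ± 0.332 (SE) for Egr1, 1.53 ± 0.596 for Arc, 1.30 ± 0.313 for Npas4 and 1.11 ± 0.136 for Junb. In 5xFAD, it was 2.51 ± 0.336 for Egr1, 1.54 ± 0.561 for Fosb, 1.02 ± 0.312 for Npas4 and 1.01 ± 0.136 for Junb. The lowest adjusted p of a member in the 4 pairs was 0.151 (edgeR), for Junb in Cnp-/- against WT, so no member was called in any of them. Cnp-/- 5xFAD lay below 5xFAD for 4 of 10 members (Fos, Junb, Egr1 and Npas4), beside 28.2% of genes, and below Cnp-/- for 5 of 10 (the same 4 and Arc), beside 22.1%. Without Cnp-/- 5xFAD replicate 2, the remaining double mutant library was below all libraries of 5xFAD for the same 4, beside 42.1% of genes, and below all of Cnp-/- for the same 5, beside 34.5%. Against 5xFAD, the log2 difference in the double mutant was -1.08 ± 0.318 for Egr1, -0.53 ± 0.135 for Junb and 0.75 ± 0.155 for Homer1.

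**Figure D2:**
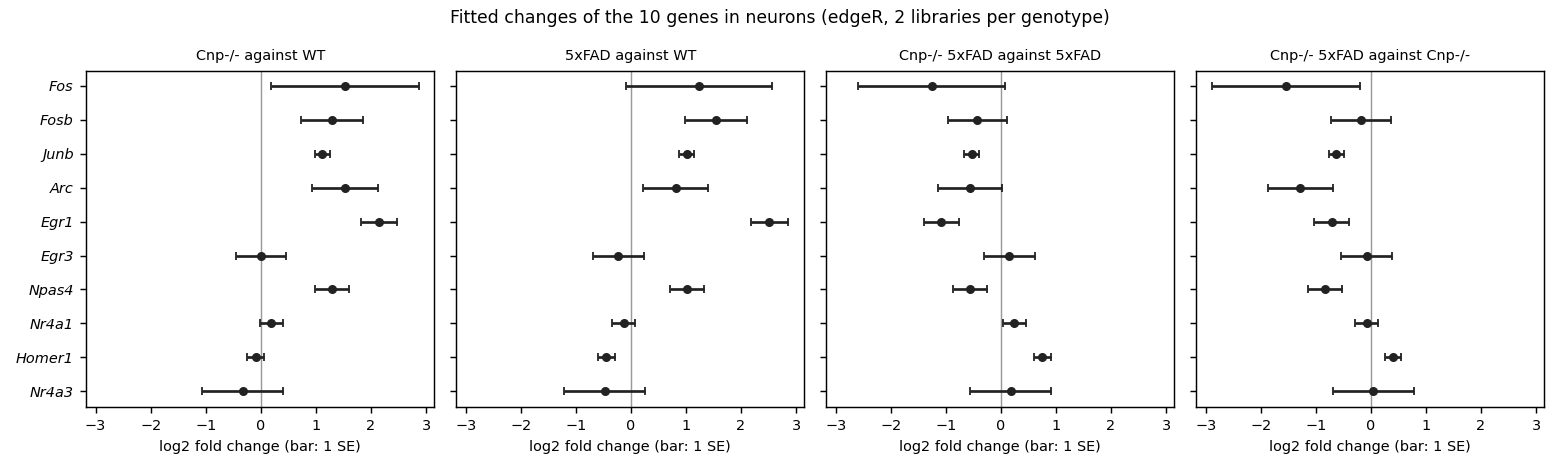
Fitted log2 fold changes of the 10 genes in neurons in 4 comparisons of genotypes, with bars of 1 SE (edgeR model of 8 libraries, 2 per genotype). Egr1 lies at 2.15 in Cnp-/- and 2.51 in 5xFAD against WT, and the bars of Egr3 and Nr4a3 span 0 in all 4 comparisons.

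Since the share of Gad neurons differed between libraries, the Slc17a7 class was examined alone. In this class, Egr1 was at 2.98 and 2.55 CPM in WT, 12.1 and 9.79 CPM in Cnp-/-, 15.9 and 14.1 CPM in 5xFAD, and 7.98 and 4.88 CPM in Cnp-/- 5xFAD. Npas4 was at 8.27 and 8.30 CPM in WT, 19.2 and 21.4 CPM in Cnp-/-, 16.5 and 18.0 CPM in 5xFAD, and 15.7 and 7.52 CPM in Cnp-/- 5xFAD. Both genes had the single mutants above WT without overlap, as did Fos, Fosb, Junb and Arc (6 of 10 in all, beside 7.44% of the genes tested in this class). The other 4 members, Egr3, Nr4a1, Homer1 and Nr4a3, were lower in 5xFAD than in WT without overlap, Nr4a3 by a margin far within its spread (17.91 against 17.92 CPM), beside 11.3% of genes, and Homer1 was also lower in Cnp-/- (1 of 10, beside 16% of genes). Egr3 was at 13.9 and 11.6 CPM in WT, 11.7 and 10.3 CPM in Cnp-/-, 8.84 and 8.53 CPM in 5xFAD, and 15.0 and 5.30 CPM in Cnp-/- 5xFAD. Homer1 was at 416 and 314 CPM in WT, 288 and 273 CPM in Cnp-/-, 235 and 210.4 CPM in 5xFAD, and 389 and 313 CPM in Cnp-/- 5xFAD. Junb was at 10.2 and 16.8 CPM in WT, 27.5 and 29.3 CPM in Cnp-/-, 25.5 and 29.1 CPM in 5xFAD, and 19.8 and 18.3 CPM in Cnp-/- 5xFAD, again with the double mutant between WT and the single mutants. The interaction in this class was -3.19 ± 0.377 (SE) for Egr1, -1.84 ± 0.440 for Npas4 and -1.55 ± 0.285 for Junb, with edgeR adjusted p-values of 0.387, 0.615 and 0.544. In the Gad class, with 527 to 2180 nuclei per library, Junb was at 8.70 and 2.51 CPM in WT, 14.6 and 14.8 CPM in Cnp-/-, 3.62 and 15.9 CPM in 5xFAD, and 1.14 and 2.05 CPM in Cnp-/- 5xFAD, so that replicates were far apart in WT and 5xFAD and close in Cnp-/-. The make-up of this class also differed between replicates. Its nuclei with at least 2 UMIs of Rgs9 and a UMI of Drd1 or Drd2 numbered 114 and 5 in WT and 286 and 40 in Cnp-/-. They numbered 5 and 349 in 5xFAD, and 134 and 2 in Cnp-/- 5xFAD. Over all libraries, Junb was detected in 15.4% of them and in 5.96% of the whole Gad class. The part of this make-up in the levels of the class was not tested. None of the 6 members kept both single mutants above WT in the Gad class, since 5xFAD overlapped with WT for each. Npas4 was at 10.5 and 4.88 CPM in WT and 1.15 and 11.99 CPM in 5xFAD, where the lowest value rested on 7 UMIs. Egr1 was at 4.76 and 0 CPM in WT and 6.58 and 2.01 CPM in 5xFAD. Cnp-/- lay above WT without overlap for Fos, Junb, Arc and Npas4, but not for Fosb and Egr1. The share of all genes with such orders in the Gad class was not computed. These counts are therefore not read as a result about the members.

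Detection in single neurons depends on depth, so shares of neurons with at least 1 UMI were computed as the mean probability of detection after thinning each neuron to 3845 UMIs, the 10th percentile. This left out 4513 shallower neurons. The loss was uneven, at 1656 of 6838 in Cnp-/- replicate 2, 1082 of 6120 in WT replicate 1 and 120 of 4463 in 5xFAD replicate 1. The neurons compared after thinning are therefore not the same part of each library. Among the AP-1 genes, the Junb share was 3.49% and 5.24% in WT, 8.75% and 9.34% in Cnp-/-, 7.93% and 9.19% in 5xFAD, and 5.80% and 6.18% in Cnp-/- 5xFAD. The Fos share was 0.932% and 0.547% in WT, 1.91% and 2.47% in Cnp-/-, 1.53% and 1.86% in 5xFAD, and 1.28% and 0% in Cnp-/- 5xFAD. The double mutant lay between WT and the single mutants for Junb, and the shares of both genes were lower in WT than in the single mutants. Fosb was detected in 0.197 to 0.991% of neurons, lowest in WT replicate 2.

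The Egr1 share was 1.40% and 0.736% in WT, 3.48% and 3.25% in Cnp-/-, 5.21% and 3.15% in 5xFAD, and 2.40% and 1.93% in Cnp-/- 5xFAD. The Npas4 share was 3.34% and 2.51% in WT, 5.52% and 6.89% in Cnp-/-, 4.67% and 5.27% in 5xFAD, and 4.74% and 2.67% in Cnp-/- 5xFAD. The Arc share was 1.81% and 2.56% in WT, 4.61% and 7.36% in Cnp-/-, 4.07% and 3.58% in 5xFAD, and 4.04% and 0.965% in Cnp-/- 5xFAD. All 3 genes were detected in more neurons in each single mutant library than in both WT libraries, and of the 3 only Egr1 also in both double mutant libraries. With Fos, Fosb and Junb, 6 of 10 members had higher thinned shares in all single mutant libraries than in WT, beside 7.32% of all genes. The Homer1 share was 53.7% and 47.6% in WT, 55.1% and 52.6% in Cnp-/-, 47.2% and 46.7% in 5xFAD, and 60.4% and 60.6% in Cnp-/- 5xFAD, with the highest shares in the double mutant. Nr4a1 was detected in 13.7 to 20.4%, Egr3 in 1.66 to 3.97% and Nr4a3 in 1.77 to 8.44% of neurons, with the lowest library being 5xFAD replicate 2 for Nr4a1 and Cnp-/- 5xFAD replicate 2 for Egr3 and Nr4a3.

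Thinned shares of the 4 libraries with Cnp loss overlapped with those of the 4 without for every member (0 of 10 higher without overlap, beside 0.954% of all genes tested), and the same held for 5xFAD (0 of 10, beside 2.27%). Homer1 came nearest, at 57.2% ± 3.99 with Cnp loss and 48.8% ± 3.28 without (SD, n = 4). This difference of 8.34 percentage points had p = 0.0571 in a two-sided exact permutation test, unadjusted over the 10 members, where the smallest p that the design allows is 0.0286. For 5xFAD, the lowest p of a member was 0.229 (exact permutation test), for Fosb with a difference of 0.220 percentage points.

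As counted, without thinning, Junb was detected in 10.0 to 22.5% of the neurons of a library, Npas4 in 7.13 to 14.1%, Egr1 in 1.71 to 14.6%, Arc in 2.85 to 14.2% and Homer1 in 67.6 to 85.0%, at a median of 9105 UMIs per neuron. Mature oligodendrocytes, set beside neurons as a cell type of another kind, had a median of 1515 UMIs, and shares of 0 to 0.196% for Junb, 0% for Npas4, 0 to 0.225% for Egr1, 0 to 2.91% for Arc and 0 to 0.154% for Homer1. With both cell types thinned to 2000 UMIs, which keeps 44446 of 45141 neurons but only 1495 of 5612 oligodendrocytes, the share was higher in neurons in all 8 libraries for 8 members and in 6 libraries for Fos and Arc. The exceptions for Fos were WT replicate 2 (0.323% of neurons and 0.398% of oligodendrocytes, the latter from 1 UMI) and the library without a Fos UMI in neurons. Those for Arc were 5xFAD replicate 2 (1.86% of neurons and 4.98% of oligodendrocytes) and Cnp-/- 5xFAD replicate 2 (0.526% and 1.55%), where 16 and 18 oligodendrocytes carried a single Arc UMI each. In CPM, Arc was at 17.9 in oligodendrocytes and 10.3 in neurons of the former library, and at 18.5 and 2.55 in those of the latter. Astrocytes, endothelial cells and OPC (oligodendrocyte precursors) of these libraries did not share this level, with 1 and 0 Arc UMIs among 1793660 and 1568790 UMIs of astrocytes and 0 in the other two, where 0 allows up to 5.79 CPM. Microglia held 1 and 0 Arc UMIs, and newly formed oligodendrocytes and pericytes 0, which allows up to 8.91 and 57.7 CPM.

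For all members but Homer1, most neurons with a UMI carried only 1. At least 2 UMIs were found in 15.1% (Fosb) to 31.7% (Nr4a3) of the positive neurons for 8 members, in 42.0% for Nr4a1 and in 69.7% for Homer1.

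The members also differed between classes of neurons. Apart from the Slc17a7 and Gad classes, 1782 to 3113 neurons per library stayed unclassed, and the Slc17a6 class, with 339 nuclei of which 277 were from WT, was too small in the mutants to compare. Mean levels over the 8 libraries ran from the Slc17a7 class over unclassed neurons to the Gad class for 9 of 10 members, the exception being Fos. Egr3 was at 10.6 ± 3.12 CPM (SD, n = 8) in the Slc17a7 class and 2.67 ± 2.80 CPM in the Gad class, 3.99 times as high. Arc was 3.84 times as high in the Slc17a7 class, Egr1 2.80, Junb 2.79, Homer1 2.57, Nr4a3 2.20, Nr4a1 1.93, Fosb 1.74 and Npas4 1.65 times, by ratio of the means. The Slc17a7 class was higher than the Gad class in all 8 libraries for Junb, Arc, Egr3, Nr4a1, Homer1 and Nr4a3, in 7 for Egr1 and Npas4, and in 6 for Fosb.

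Neighbours in this order were compared within libraries by exact sign-flip permutation tests, 20 in all, whose smallest p is 0.00781 and which were not adjusted. Of these, 16 had p under 0.05, and 13 without Cnp-/- 5xFAD replicate 2, where the smallest p is 0.0156 (exact permutation test). The share of all genes that differ in this way between the classes was not computed. Whether the members differ more often than other genes is therefore not known. Between unclassed neurons and the Gad class, p was 0.00781 for Junb, Arc, Egr3, Nr4a1, Homer1 and Nr4a3 (exact permutation test), each higher in 8 of 8 libraries. For Junb, these levels were 21.5 ± 7.16 against 7.92 ± 6.38 CPM. Between the Slc17a7 class and unclassed neurons, Egr1, Nr4a1 and Homer1 were higher in the Slc17a7 class in 8 of 8 libraries (p = 0.00781 each, exact permutation test), and Egr3, Nr4a3 and Arc in 7 (p = 0.0156, 0.0156 and 0.0234, exact permutation test). For Homer1, these levels were 305 ± 70.4 against 234 ± 54.5 CPM. For Npas4, p was 0.0469 in this step and 0.0313 in the next, and for Egr1 0.0391 in the next (exact permutation test), and without Cnp-/- 5xFAD replicate 2 these were 0.0938, 0.0625 and 0.0781 (exact permutation test). This step did not exceed the spread for Junb (22.1 ± 6.86 against 21.5 ± 7.16 CPM, p = 0.398, exact permutation test). For Fosb, neither step exceeded the spread (p = 0.266 for both, exact permutation test). Fos was at 3.36 ± 2.33 against 3.19 ± 2.74 CPM in the Slc17a7 and Gad classes, higher in 4 of 8 libraries (p = 0.828, exact permutation test). Without Cnp-/- 5xFAD replicate 2, at 0 in each class, it was at 3.85 ± 2.05 against 3.65 ± 2.61 CPM, higher in 4 of 7 libraries (p = 0.828, exact permutation test). Fos was higher in unclassed neurons than in the Slc17a7 class in 6 libraries, with p = 0.0313 with and without this library (exact permutation test).

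**Figure D3:**
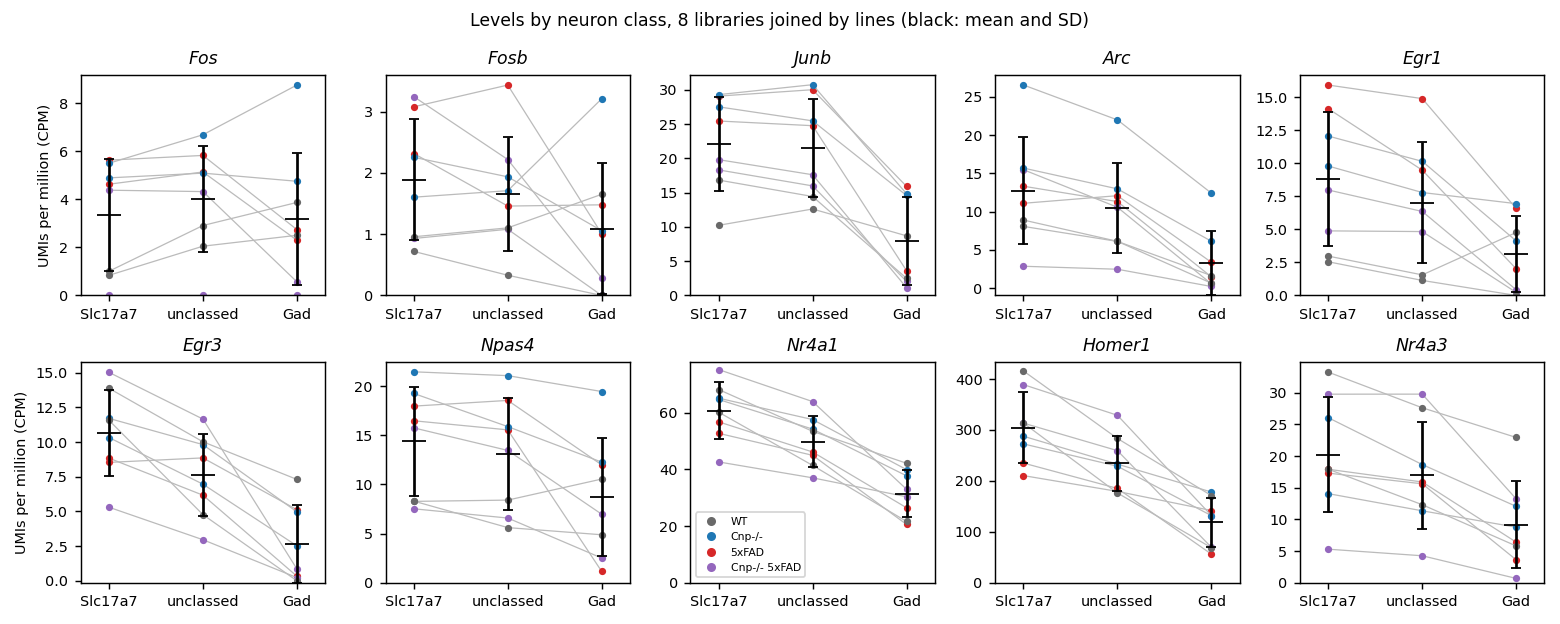
Levels of the 10 genes in the Slc17a7 class, unclassed neurons and the Gad class, in CPM of the UMIs of that class, with 8 libraries joined by lines, colours for genotypes, and the mean and SD in black. Most genes are lowest in the Gad class, Egr3 and Arc by the largest ratio, while Fos has no such order.

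Of all UMIs of a member, 92.8% (Junb) to 99.9% (Npas4) lay in neurons, the most numerous nuclei with the most UMIs. A gene spread evenly over all UMIs would also lie mostly in neurons. The share of all UMIs that neurons held was not set beside these percentages, so they do not measure enrichment. In CPM of a cell type, neurons were the highest type in all 8 libraries for Npas4, Nr4a1 and Homer1, in 7 for Egr3 and Nr4a3, in 6 for Arc, 5 for Fosb, 4 for Fos and 3 for Egr1. Junb was higher in endothelial cells in every library, at 62.7 and 62.2 CPM in WT, 76.0 and 77.0 CPM in Cnp-/-, 67.0 and 77.7 CPM in 5xFAD, and 71.2 and 69.3 CPM in Cnp-/- 5xFAD. These levels rested on 40 to 108 UMIs per library, and the exact Poisson intervals (95%, counting error only) of WT replicate 1, 48.8 to 79.3 CPM, and of 5xFAD replicate 1, 52.3 to 84.5 CPM, overlap, so no order of the genotypes is read from them. In microglia, Junb ranged from 0 to 85.1 CPM on at most 51 UMIs. Egr1 in endothelial cells was at 2.73 and 18.7 CPM in WT, 0 and 0 CPM in Cnp-/-, 10.4 and 16.8 CPM in 5xFAD, and 27.0 and 8.47 CPM in Cnp-/- 5xFAD, on at most 25 UMIs, and did not follow its order in neurons. Fos in astrocytes was at 0 and 0 CPM in WT, 13.1 and 12.3 CPM in Cnp-/-, 0 and 6.13 CPM in 5xFAD, and 1.22 and 14.0 CPM in Cnp-/- 5xFAD, with at most 22 UMIs per library.

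Members were detected in the same neurons more often than their shares and the depth of the neurons give. For each of the 45 pairs, the number of neurons with both genes was set against the number expected if detection were independent within 10 depth classes of each library. All 45 ratios were above 1, with a median of 1.49 (1.06 to 3.75), and 44 pairs were above expectation in every library that had both genes. Fos and Fosb were found together in 202 neurons where 53.9 were expected, a ratio of 3.75. Fosb and Npas4 followed with 395 where 138 were expected (2.85), and Fosb and Egr3 with 267 where 106 were expected (2.51). Pairs with Homer1, which most neurons express, lay between 1.06 and 1.10. Homer1 was in 75.5% of neurons, and a gene found in so many leaves little room for a ratio above 1. Of the 18 genes of the upstream pathway, Srf was the one in the fewest neurons (5.20%), chosen after the values were seen, and its ratios with the 10 members ran from 1.02 to 1.32, with a median of 1.13. Over all 18, the 180 pairs with a member had a median of 1.01 (0.919 to 1.32), with 131 above 1, but 14 of these genes were in most neurons. Within the Slc17a7 class, chosen as a check after the values were seen, the median over the pairs of members was 1.51 (1.02 to 4.37). All 45 were above 1, and 38 were above expectation in every library that had both genes. These ratios describe nuclei that share libraries and classes of neurons, and no test was made over nuclei.

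**Figure D4:**
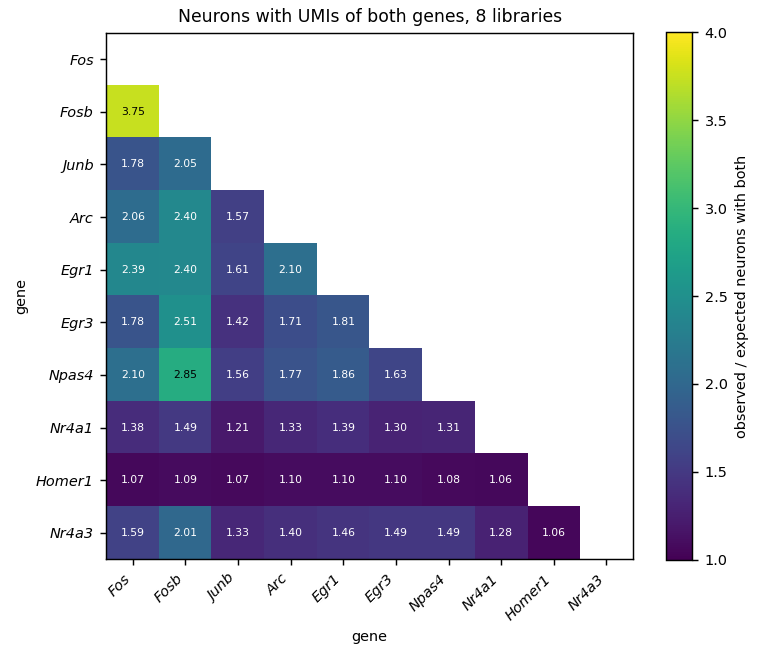
Neurons with UMIs of both genes of a pair, divided by the number expected within depth classes and libraries, summed over 8 libraries, where 1 is the expected value. The pair of Fos and Fosb is highest at 3.75, and pairs with Homer1, which most neurons express, lie close to 1.

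At least 3 of the 9 members other than Homer1 were detected in 5901 of 45141 neurons (13.1%), 1.20 times the 4937 expected within depth classes. By library, with exact Clopper-Pearson 95% intervals for counting error, the share was 10.0% (9.29 to 10.8%) and 8.08% (7.37 to 8.82%) in WT. In Cnp-/- it was 18.3% (17.3 to 19.3%) and 13.9% (13.1 to 14.8%). In 5xFAD it was 17.4% (16.3 to 18.5%) and 15.2% (14.2 to 16.2%), and in Cnp-/- 5xFAD 19.1% (18.0 to 20.2%) and 4.97% (4.44 to 5.54%). The single mutants and 1 double mutant library lay above WT, and the other double mutant library, without a Fos UMI in neurons, lay lowest of all. Of the 7 members left without Arc and Fos, at least 3 were detected in 8.45% and 6.11% in WT, 14.7% and 9.52% in Cnp-/-, 14.5% and 12.7% in 5xFAD, and 15.9% and 4.25% in Cnp-/- 5xFAD, and after thinning in 1.27% and 0.977% in WT, 2.49% and 1.98% in Cnp-/-, 2.22% and 2.19% in 5xFAD, and 2.24% and 0.332% in Cnp-/- 5xFAD. Of all 9 members, at least 3 were detected after thinning in 1.65% and 1.30% in WT, 3.62% and 3.58% in Cnp-/-, 3.22% and 3.11% in 5xFAD, and 3.14% and 0.438% in Cnp-/- 5xFAD. None of the 5612 mature oligodendrocytes carried 3 members, which allows a share of up to 0.0535%. In the Slc17a7 class, the share as counted was 13.5% and 11.9% in WT, 20.7% and 16.0% in Cnp-/-, 20.7% and 19.3% in 5xFAD, and 23.6% and 6.23% in Cnp-/- 5xFAD. At least 5 members were found in 1540 neurons, and the most in 1 neuron was 9.

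**Figure D5:**
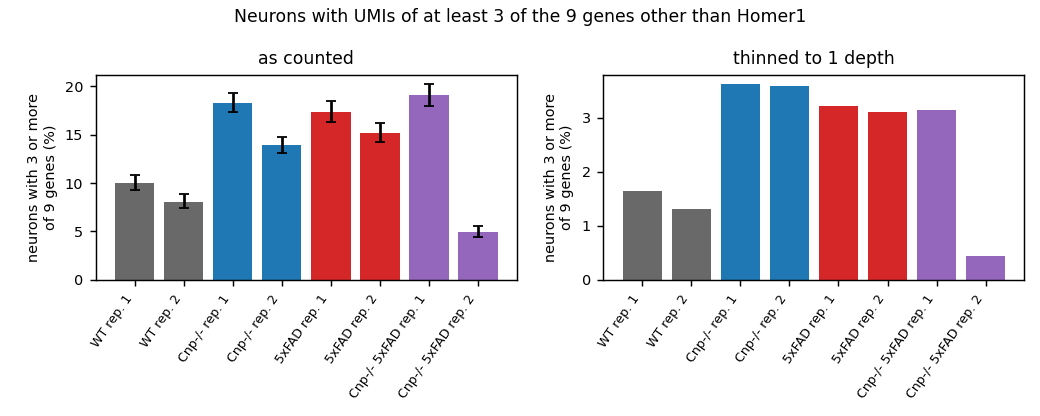
Share of neurons with UMIs of at least 3 of the 9 genes other than Homer1 (%), 1 bar per library, as counted with exact 95% binomial intervals (left) and after thinning each neuron to 1 depth (right). Both single mutants lie above WT, and Cnp-/- 5xFAD replicate 2 is lowest at 4.97% as counted.

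Other genes of the pathway were taken from 3 lists. Of 17 other primary response genes, 16 passed the filter on low counts, as did all 15 delayed effectors and all 18 upstream genes, and none passed the edgeR test for any of the 3 effects. For Cnp loss, the median log2 fold change was -0.06 over the primary response genes, 0.02 over the effectors and 0.05 over the upstream genes, with 1, 2 and 2 at an unadjusted p under 0.05, beside 8.14% of all genes. For 5xFAD, it was -0.11, -0.05 and 0.02, with 1, 3 and 2, beside 11.8%. For Cnp loss, the median over the primary response genes did not have the sign of the members' median (0.31). This holds for the medians, not for each gene, and the difference between them was not tested. For the interaction, the median log2 value was -1.03 over the primary response genes, 0.18 over the effectors and 0.00437 over the upstream genes. Unadjusted p-values were under 0.05 for 5, 4 and 0 of them, beside 4.94% of all genes. Egr4, a zinc finger factor of the Egr family, was at 2.83 and 3.26 CPM in WT, 8.05 and 7.17 CPM in Cnp-/-, 7.36 and 6.83 CPM in 5xFAD, and 6.68 and 1.37 CPM in Cnp-/- 5xFAD, with an interaction of -2.14 ± 0.834 (SE). Like Egr1, it was higher in the single mutants than in WT, and like Npas4 it was lowest in Cnp-/- 5xFAD replicate 2. Ier2, an early response gene, had an interaction of -3.04 ± 1.08 but only 4 to 76 UMIs per library. For Cnp loss, Ier2 had a log2 fold change of -1.23 ± 0.539 and Ier5 of -0.98 ± 0.460. Jun, the main partner of Fos in AP-1, was at 3.68 and 6.66 CPM in WT, 7.13 and 3.85 CPM in Cnp-/-, 6.50 and 7.15 CPM in 5xFAD, and 1.88 and 1.48 CPM in Cnp-/- 5xFAD. Its log2 fold change for 5xFAD was -0.64 ± 0.259, an average of 5xFAD, which overlapped with WT, and the double mutant, which lay below every other library. Sik1, a salt-inducible kinase, had -0.38 ± 0.501 for 5xFAD.

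Among the effectors, Gadd45g, a growth arrest and DNA damage gene, was at 3.64 and 5.00 CPM in WT, 6.68 and 5.64 CPM in Cnp-/-, 6.47 and 7.23 CPM in 5xFAD, and 4.05 and 2.90 CPM in Cnp-/- 5xFAD, with an interaction of -1.48 ± 0.323 (SE). Pcsk1, which cleaves prohormones, had the opposite sign, with 1.15 ± 0.334. For Cnp loss, the neuropeptide precursors Scg2 and Vgf had log2 fold changes of -0.93 ± 0.346 and -0.69 ± 0.538, and for 5xFAD Scg2 had -0.81 ± 0.345 and Ptgs2, a prostaglandin synthase, 0.58 ± 0.206. Of the upstream genes, Mef2c, a factor that binds at activity-regulated genes, was at 668 and 658 CPM in WT, 668 and 805 CPM in Cnp-/-, 663 and 734 CPM in 5xFAD, and 874 and 1084 CPM in Cnp-/- 5xFAD. Its log2 fold change was 0.39 ± 0.0964 for Cnp loss, 0.26 ± 0.0964 for 5xFAD and 0.36 ± 0.193 for the interaction. The kinase gene Mapk3 had -0.27 ± 0.140 for Cnp loss, the calcium channel gene Cacna1c -0.20 ± 0.151 for 5xFAD and the SRF partner Elk1 0.25 ± 0.209 for the interaction. None of the named genes of the lists had an edgeR adjusted p under 0.05.

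Members resembled each other to different degrees over the 8 libraries. The correlation of log2 levels was 0.978 for Egr3 and Nr4a3 and 0.893 for Arc and Npas4, the highest of 36 pairs of the members other than Fos, and -0.652 for Junb and Homer1, the lowest. It was below 0 for 8 pairs, 5 of them with Homer1, such as -0.404 with Egr1 and -0.383 with Npas4. These values describe libraries that share depth and make-up of neurons. A score, the mean of the standardized log2 levels of the 9 members with at least 20 UMIs in each library (all but Fos, and with Homer1 despite its negative correlations), was used to find genes of like pattern among 13642 others. The 5 nearest over 8 libraries were A230009B12Rik (r = 0.957), Hnrnpll (0.954), Mettl2 (0.940), Fscn1 (0.920) and Tmem106a (0.918). They are the top of 13642 correlations over only 8 libraries. How high such values run among unrelated genes was not tested, so the 5 are a description only. Hnrnpll, an RNA-binding protein gene, was at 97.9 and 90.0 CPM in WT, 112 and 102 CPM in Cnp-/-, 105 and 105 CPM in 5xFAD, and 108 and 86.1 CPM in Cnp-/- 5xFAD, a much narrower range than that of most members.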

How the data were processed

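Nuclei of 8 libraries, 2 per genotype, were sequenced by droplet-based single-nucleus RNA sequencing. Per the labels, the submitters' processing notes name Cell Ranger 6.1.2 and mm10. The authors then removed ambient RNA with CellBender, filtered nuclei by library and annotated cell types. The deposited table holds UMI counts of each gene in each nucleus, not normalized. Whether intronic reads were counted and how doublets were treated is not given in the sources used here, and no doublet caller was run. The lowest total was 501 UMIs per nucleus.

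UMI counts of nuclei annotated as neurons were summed per library. Genes were filtered by filterByExpr, scaled by TMM and tested two-sided with edgeR 4.0.16 (R 4.3.3, quasi-likelihood F-test, 1 mean per genotype, Benjamini-Hochberg threshold of 0.05 over all 21584 genes). The SE is the absolute log2 fold change divided by the square root of F. The estimated biological coefficient of variation was 0.207. DESeq2 1.42.0 was an alternative. Other alternatives were size factors, no filter, the replicate block, equal nuclei, deeper nuclei, single classes and leaving out each library. Shares were computed in Python 3.11.15 as mean detection probabilities after thinning and compared by exact permutation tests (scipy 1.17.1). Scripts were tested on simulated data. Named genes were the 10 members and, from each list without a call, the 2 with the largest absolute log2 fold change per effect, plus the 5 genes of most like pattern. Members and lists were chosen with earlier results of these data known. Genes are placed by the annotation on mm10, and promoters by RefSeq on GRCm38.p6.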

Additional observations from a re-analysis of the deposited data

Results flagged for a closer look

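Arc in neurons of Cnp-/- 5xFAD replicate 2 was at 2.55 CPM, far below the other 3 libraries with 5xFAD (10.3 to 11.6 CPM) by Dixon's test of the gap over the range. Nr4a3 in WT replicate 1 was at 28.0 CPM, far above the other 3 libraries with Cnp (14.1 to 15.3 CPM). These were 2 of 40 sets of 4 libraries tested (5%). Chance alone gives about 1 in 20 for independent sets that are each drawn from a single population. Here the sets share libraries and mix genotypes, and members vary together, so that rate need not hold.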

How the results depend on the processing

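Leaving out any of the 8 libraries left 0 members called by edgeR for Cnp loss, 5xFAD and the interaction, and so did other size factors, no filter on low counts, an equal number of nuclei per library, nuclei with at least 2000 UMIs, and the Slc17a7 and Gad classes alone. DESeq2 called 0, 1 and 3 members, and 177, 501 and 58 of all genes, where edgeR called 4, 0 and 0, and the cause was not tested. For Cnp loss, the number of all genes called was 0 in the Gad class, 7 in libraries without 5xFAD, 2 in 5xFAD libraries, and 2 to 5 with 1 library left out, and it was 0 to 4 for 5xFAD and 0 to 1 for the interaction. Neighbouring neuron classes with p under 0.05 numbered 13 of 20 without Cnp-/- 5xFAD replicate 2, chosen after seeing the data, and 16 with it (exact permutation test). No share over all genes was computed beside these counts. Members whose thinned shares did not overlap numbered 0 to 1 of 10 with 1 library left out, beside 6.39 to 10.4% of all genes for Cnp loss and 5.37 to 13.4% for 5xFAD, for Cnp loss Homer1 without WT replicate 1 or Cnp-/- replicate 2 and Nr4a1 without Cnp-/- 5xFAD replicate 2, and for 5xFAD Fosb without Cnp-/- 5xFAD replicate 2.

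Same-numbered libraries showed no shared deviation, with correlations of -0.20 to 0.19 over 6 pairs of genotypes, of which 1 was over 0.1, so the numbers were not read as a pairing. With the replicate block, 0 members were called in each effect and 3 genes for Cnp loss, and signs turned for Cnp loss -0.0322 (Fos) and -0.00451 (Egr3), and for the interaction -0.0194 (Egr3) on the log2 scale.

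Most sign changes were of values that no setting called. Cnp loss and 5xFAD were averages over opposite differences for many members, so signs turned within 5xFAD libraries alone (for Cnp loss -1.25 (Fos), -0.43 (Fosb), -0.53 (Junb), -0.56 (Arc), -1.08 (Egr1), -0.56 (Npas4) and 0.18 (Nr4a3)), within libraries without 5xFAD (for Cnp loss -0.0933 (Homer1)), within Cnp-/- libraries (for 5xFAD -0.18 (Fosb), -0.63 (Junb), -0.71 (Egr1), -0.84 (Npas4), 0.40 (Homer1) and 0.0392 (Nr4a3)) and within libraries with Cnp (for 5xFAD 1.23 (Fos) and 0.81 (Arc)). In the Gad class they turned for 5xFAD -1.57 (Fosb), -1.23 (Junb), -1.60 (Egr1) and -0.96 (Npas4), and for Cnp loss -0.86 (Fos), -0.73 (Fosb), -0.61 (Junb), -1.18 (Egr1), -1.09 (Egr3) and 0.0582 (Nr4a3), and for the interaction -2.21 (Egr3) and -0.32 (Homer1). In the Slc17a7 class they turned for 5xFAD 0.58 (Fos) on the log2 scale and for 5xFAD 0.182 (Fos), 0.0897 (Npas4) and -0.986 (Homer1) in percentage points of share. Without thinning, the share turned for 5xFAD 0.241 (Egr3), 0.853 (Npas4), 2.07 (Nr4a1) and 0.0569 (Nr4a3) percentage points.

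With 1 library left out, these values changed sign for at least 1 library and ranged as follows on the log2 scale. For 5xFAD, Arc -0.96 to 0.12, Egr3 -0.64 to 0.13, Fos -5.23 to 0.34, Homer1 -0.12 to 0.0885, Npas4 -0.20 to 0.29, Nr4a1 -0.30 to 0.0455 and Nr4a3 -1.13 to 0.17. For Cnp loss, Arc -0.24 to 0.83, Egr3 -0.42 to 0.35, Fos -4.95 to 0.63 and Nr4a3 -0.99 to 0.31. For the interaction, Egr3 -0.81 to 0.74, Nr4a1 -0.32 to 0.37 and Nr4a3 -1.29 to 1.30. The extreme values of Fos come from leaving out Cnp-/- 5xFAD replicate 1, which leaves the library at 0 alone in its genotype, so they depend on the prior count. Shares ranged as follows in percentage points. For 5xFAD, Arc -1.68 to 0.170, Fos -0.603 to 0.0911, Homer1 -0.816 to 3.81, Junb -0.501 to 1.45, Npas4 -0.912 to 0.549 and Nr4a3 -1.96 to 0.176. For Cnp loss, Egr1 -0.484 to 1.01, Egr3 -0.360 to 0.412, Fos -0.155 to 0.666, Fosb -0.102 to 0.163 and Nr4a3 -1.66 to 0.475. With 2 libraries per genotype and spreads this wide, differences of the size seen for Fos, Arc and Nr4a3 were not resolved, and the few UMIs of Fosb and Fos limit their levels.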
